A study of Homo sapiens with 10 samples.

Results

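ZEB1 signal along the genome was compared between cells given 300 nM eribulin for 48 h and untreated cells, in 4 of the 10 samples of the series. The 48 h condition has 2 ZEB1 CUT&RUN libraries, whose cell line tag reads MDA_ERI, and the untreated condition has 2, tagged MDA_Parental. Whether the first tag names anything beyond the exposure is not stated, and no time is given for the untreated cells, so exposure, time in culture and any difference between the lines cannot be told apart. Both conditions are of 1 human breast cancer line, described as negative for the estrogen, progesterone and HER2 receptors. In CUT&RUN, chromatin is cut by a nuclease tethered to an antibody, here against ZEB1, and the fragments set free are sequenced. The sample descriptions also mention Tn5, which CUT&RUN does not use. Libraries of cells at 24 h and 72 h complete the ZEB1 series, and 2 IgG libraries of untreated cells were not analysed here. Fewer cells with ZEB1 at a site and less ZEB1 per cell cannot be told apart in such bulk libraries.

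ZEB1 is a zinc finger transcription factor that binds E-box sequences such as CAGGTG and recruits corepressors to epithelial genes, among them E-cadherin and the miR-200 family, and so keeps carcinoma cells mesenchymal. It also acts with AP-1 (FOS and JUN dimers) and with the YAP and TEAD proteins at genes that it activates. Eribulin blocks the growth of microtubules, arrests cells in mitosis and is used against metastatic breast cancer, and the title of the series speaks of a mesenchymal-epithelial transition induced by drugs.

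The deposited table gives whole-number counts over 52981 consensus sites. Counts in those sites summed to 1346179 and 1380070 in the 48 h libraries, and to 3561455 and 3146228 in the untreated libraries. Over sites with at least 20 counts, the libraries of a pair differed by less than sampling noise, with a chi-square per degree of freedom of 0.928 at 48 h and 0.830 in untreated cells, where sampling alone gives about 1. Each pair was therefore counted as 1 sample, both library values are printed, and no p-value is given for the comparison. Levels are CPM, counts scaled to equal library totals over tested sites and then by TMM, which sets the typical site to no change. A site was called lower or higher at 48 h where its pooled level differed at least 2-fold and the exact 95% interval of the ratio lay on one side of no change. These intervals cover counting error only.

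Of 46436 sites tested, 3644 (7.85%) were called lower at 48 h and 5119 (11.0%) were called higher. The sites called lower had a median of 5.73 CPM at 48 h, against 15.4 CPM in untreated cells. The sites called higher had a median of 12.6 CPM at 48 h, against 3.55 CPM in untreated cells. A fold of at least 4 was reached by 439 of the sites called lower and by 2078 of those called higher, and the middle 90% of log2 fold changes ran from -1.22 to 1.86. Sites that were weak in untreated cells gave most of the higher calls: among the lowest 20% of sites by untreated CPM 40.6% were called higher and 0.556% lower, and among the highest 20% 1.30% were called higher and 8.92% lower. Because this grouping uses the untreated counts that also enter the fold, it is a description of where the calls lie.

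The split between directions depends on the scale. A background level was worked out for each of the authors' peaks from its fold enrichment and p-value. The most frequent level of each list was then taken. It was nearly equal in the lists, at 0.603 for 48 h (764 of 21123 solved peaks) and 0.598 for untreated cells (2066 of 45602). Counts in sites per unit of that background were 37.5% of the untreated value at 48 h. Scaled to that background in place of the typical site, every log2 fold change is 1.42 lower: 33798 sites were then called lower and 1422 higher, so that 96.0% of calls were lower, against 41.6% on the TMM scale. Since this shift only lowers values, the 3644 sites called lower had to keep their call on the background scale. Of the 5119 called higher, 1422 kept theirs. Changes are given below on the TMM scale, relative to the typical site, with values on the background scale beside most of the named gains.

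The authors' deposited peak lists also differed in length. The list for 48 h holds 21816 peaks and the list for untreated cells 46483. Of the 48 h peaks, 89.1% (exact 95% interval 88.7% to 89.5%) overlapped an untreated peak, and of the untreated peaks 40.8% (40.3% to 41.2%) overlapped a 48 h peak. The 48 h peaks with an untreated partner had a median fold enrichment of 7.01, by the authors' peak caller, and those without one had 4.72. Among untreated peaks the medians were 12.6 with a 48 h partner and 7.51 without one.

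**Figure D1:**
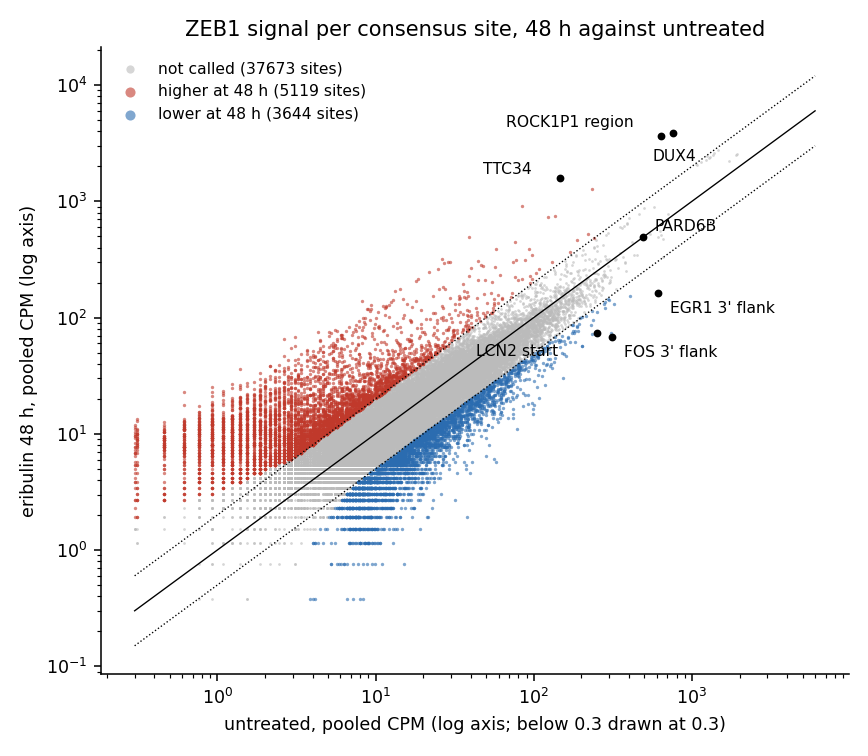
Pooled CPM of each tested site at 48 h (vertical, log axis) against untreated cells (horizontal, log axis). The solid line marks no change and the dotted lines a 2-fold difference: 3644 sites lie in blue (lower at 48 h) and 5119 in red (higher at 48 h), with the flank sites of EGR1 and FOS far below the line and DUX4, TTC34 and the ROCK1P1 region far above it.

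Of the 10 called sites with the largest losses in CPM, 3 lay beside the immediate early genes EGR1, FOS and DUSP1; cells switch such genes on within minutes of a growth factor or stress. The site with the largest loss in CPM began 95 bases past the 3′ end of EGR1, a zinc finger factor induced by mitogens (chr5:138469398-138471440, hg38 throughout). It had 155 and 169 CPM at 48 h, against 623 and 603 CPM in untreated cells, a log2 fold change of -1.92 (95% interval -2.07 to -1.77). The pairs lay far apart, and the 48 h level was 26.4% of the untreated level. At the start of EGR1 itself the difference was smaller, with 120.5 and 105 CPM at 48 h and 207 and 207 CPM in untreated cells (log2 -0.88), which is under the 2-fold limit.

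FOS, which encodes the AP-1 subunit that is transiently induced by serum and stress, had 5 linked sites, and all 5 were called lower. Together they held 170 CPM at 48 h, against 639 CPM in untreated cells. Its strongest site, 1132 bases past the 3′ end (chr14:75283362-75284463), had 64.1 and 71.0 CPM at 48 h, against 309 and 319 CPM in untreated cells (log2 -2.21, -2.44 to -1.99). The other sites past the 3′ end gave -3.11 and -2.03, the site before the gene -1.71 and the site at its start -1.15. The start thus had the smallest loss of the 5.

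FOSB, another FOS family subunit, had 3 of 5 sites called lower, all past its 3′ end. Those 128, 1091 and 3013 bases past it gave log2 -2.33, -2.50 and -1.15, while the start gave -0.44 and the gene body 0.01, neither of which was called. At JUN, the partner subunit of FOS, the start had 127.5 and 143 CPM at 48 h, against 168 and 169.5 CPM in untreated cells (log2 -0.32, not called). The site 425 bases past the 3′ end of JUN had 38.6 and 40.8 CPM at 48 h, against 127 and 130 CPM in untreated cells (log2 -1.69). NR4A1, an orphan nuclear receptor of the same early response, gave 0.22 at its start and -1.92 at the site 474 bases past its end, and IER2 gave -1.38 past its end.

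DUSP1, a phosphatase that switches off MAP kinases, had 9 linked sites, of which 8 were called lower, with 384 CPM in all at 48 h, against 1004 CPM in untreated cells. Its strongest site (chr5:172765102-172766068) had 120.5 and 139 CPM at 48 h, against 320 and 321 CPM in untreated cells (log2 -1.30). Here the start was lower too, at -1.61. BHLHE40, a helix-loop-helix repressor induced by stress and hypoxia, had 4 of 6 sites called lower, with 458 CPM in all at 48 h, against 878 CPM in untreated cells. MCL1, an anti-apoptotic BCL2 family member with a short-lived transcript, had 3 of 5.

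Counted over lists of genes, 12 of 49 sites of AP-1 subunit genes were called lower and 1 higher, where 7.19% of all sites linked to a gene within 10 kb were called lower and 9.88% higher. Of 110 sites of immediate early and MAP kinase feedback genes, 25 were called lower and 1 higher. The median log2 fold changes were -0.32 and -0.37, against -0.02 over all linked sites. The exceptions were a site 63 bases from FOSL1, a FOS family subunit linked to invasive breast cancer, and a site 5101 bases from IER3. The FOSL1 site had 28.6 and 33.2 CPM at 48 h, against 15.1 and 13.8 CPM in untreated cells (log2 1.09, on the background scale -0.33). The IER3 site had 97.3 and 92.1 CPM at 48 h, against 43.4 and 43.2 CPM in untreated cells (log2 1.13, on the background scale -0.30).

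Over both lists together, the position of a site relative to its gene, a grouping chosen after the values were seen, went with the size of the loss. Past the 3′ end, 20 of 35 sites (57.1%, at 15 genes) were called lower, with a median log2 of -1.23. Before the gene 6 of 22 were called lower (median -0.44), in the gene body 3 of 32 (median -0.28) and at the start 3 of 30 (median -0.24). None of these 119 sites was called higher, since the FOSL1 and IER3 sites called higher have no listed strand and are left out. The order of these medians is the same on both scales, since the background scale moves all of them by the same amount. Sites whose gene has no listed start, and so no strand, are left out of this count. Over all tested sites, with flanks limited to 5 kb, the shares called lower were 9.58% past a 3′ end and 6.94% before a start. They were 9.71% in gene bodies and 1.70% at starts, where these lists had 10%.

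**Figure D2:**
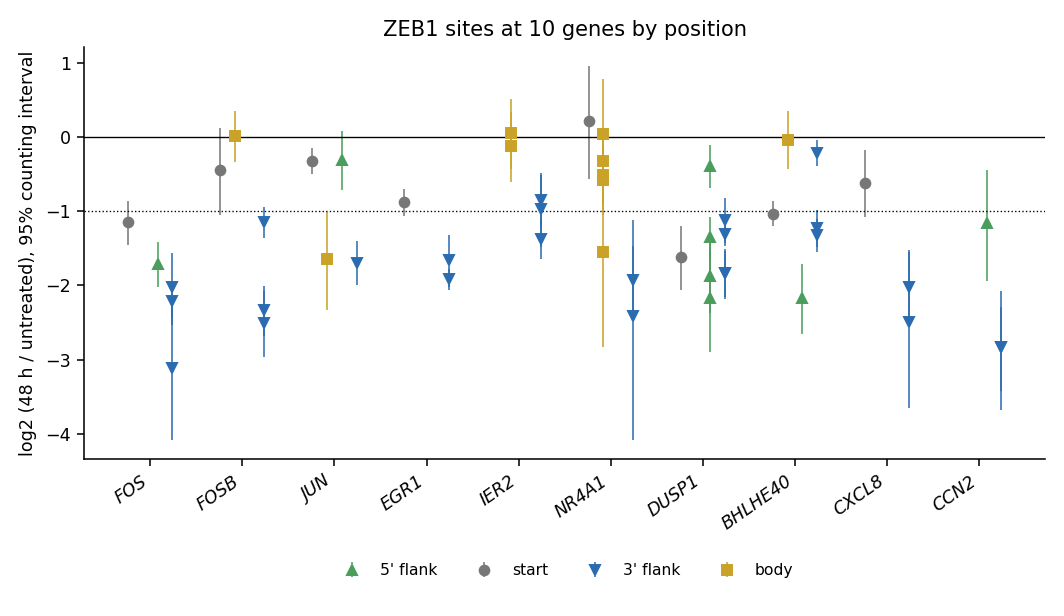
Log2 fold change (48 h over untreated) of every linked site at 10 genes, by position relative to the gene, with 95% counting intervals; the dotted line marks 2-fold lower. At FOS, FOSB, EGR1 and NR4A1 the sites past the 3′ end (blue triangles) lie below the start sites (grey circles), while at DUSP1 the start also lies below the 2-fold line.

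Losses of similar size lay at genes outside the early response. A site in the body of ARHGEF37, named as a guanine nucleotide exchange factor (chr5:149632380-149633246), had 74.9 and 71.7 CPM at 48 h, against 299 and 314 CPM in untreated cells (log2 -2.06). A site in RIPOR3 (chr20:50678198-50679065) had 151 and 152.5 CPM at 48 h, against 394 and 417 CPM in untreated cells (log2 -1.41). The 10 largest losses among called sites also included DNAJB12, a co-chaperone of the endoplasmic reticulum (log2 -1.21), SLC37A2, a sugar phosphate transporter (-1.06), PRR36 (-1.09) and a site 35354 bases from TOMM20 (-1.70). The SLC37A2 call rests on both 48 h libraries: without the first it was -0.97.

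LCN2 encodes lipocalin 2, a secreted protein that withholds iron from bacteria and is made by many carcinomas. The site over its start (chr9:128149021-128149653) had 74.2 and 73.2 CPM at 48 h, against 250 and 251 CPM in untreated cells (log2 -1.77, -1.99 to -1.55). It was the only one of the 10 largest losses among called sites that lay over a gene start.

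VMP1, an endoplasmic reticulum protein needed for autophagy, is the gene with the largest summed loss among those whose linked sites all lay below no change. Its 16 sites held 742 CPM at 48 h, against 1403 CPM in untreated cells, and 7 were called lower. The strongest (chr17:59842265-59844629) lies 928 bases past the hairpin of miR-21, an abundant microRNA in carcinomas whose gene sits at the end of VMP1. It had 323 and 339 CPM at 48 h, against 630 and 690 CPM in untreated cells (log2 -0.99, -1.10 to -0.89), just short of the 2-fold limit. The mature microRNA from that hairpin is shown with its seed (bases 2 to 8) in capitals, from RefSeq, GRCh38.p14, chr17:59841273-59841294, plus strand.
hsa-miR-21-5p: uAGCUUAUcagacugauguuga
LITAF, an endosomal protein induced by lipopolysaccharide, had 9 sites below no change, 3 of them called, with 272 CPM at 48 h, against 596 CPM in untreated cells. Of 4048 protein-coding genes with at least 3 linked sites, 522 (12.9%) had all of them below no change and 454 (11.2%) had all of them above.

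Among genes of the TGF-beta pathway, which drives mesenchymal traits together with ZEB1, 26 of 129 sites were called lower and 7 higher (median log2 -0.32). The list's strongest site, near the matrix gene LTBP2, was not called (96.6 and 106.5 CPM at 48 h, against 133 and 138 CPM in untreated cells; log2 -0.41). SMAD3, the signal transducer of the pathway, had 3 of 19 sites called lower and 1 called higher, with 35.5 and 29.5 CPM at 48 h, against 10.1 and 11.5 CPM in untreated cells (log2 1.59, on the background scale 0.16).

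YAP and TEAD genes and targets did not move one way: 18 of 185 sites were called lower and 12 higher (median -0.13). CCN2, a matricellular growth factor and the best known YAP target, stood out with 3 of 3 sites lower. The strongest of them, 682 bases past the 3′ end (chr6:131946902-131947494), had 8.50 and 13.6 CPM at 48 h, against 79.4 and 77.5 CPM in untreated cells (log2 -2.83, -3.42 to -2.29). The related gene CCN1 had 1 of 4 sites lower, at -2.12. TEAD1 had 4 of 10 sites lower and none higher. TEAD3, a DNA-binding partner of YAP, had the strongest site of the list (chr6:35473915-35475662) with 229 and 253 CPM at 48 h, against 104 and 104 CPM in untreated cells (log2 1.22, on the background scale -0.21).

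Of 75 sites at inflammatory and interferon genes, 11 were called lower and 3 higher (median -0.35). CXCL8, the neutrophil chemokine interleukin 8, had 2 of 3 sites lower. The site 563 bases past its 3′ end (chr4:73744279-73744585) had 16.2 and 14.3 CPM at 48 h, against 64.3 and 59.7 CPM in untreated cells (log2 -2.02), while its start gave -0.62 and was not called. The related chemokine genes CXCL1 and CXCL2 had 2 of 2 and 1 of 2 sites lower, and IL1B, the cytokine interleukin 1 beta, had 2 of 3. NFKB2 had the strongest site, at its start, with 127.5 and 118 CPM at 48 h, against 154 and 159 CPM in untreated cells (log2 -0.35, not called). IRF7, a factor of the interferon response, had a higher site at 1.02, which was -0.41 on the background scale and 0.85 without the second 48 h library. The IRF7 site lies 0.615 Mb from a chromosome end, and 28.5% of all tested sites at 0.5 to 1 Mb were called higher.

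**Figure D3:**
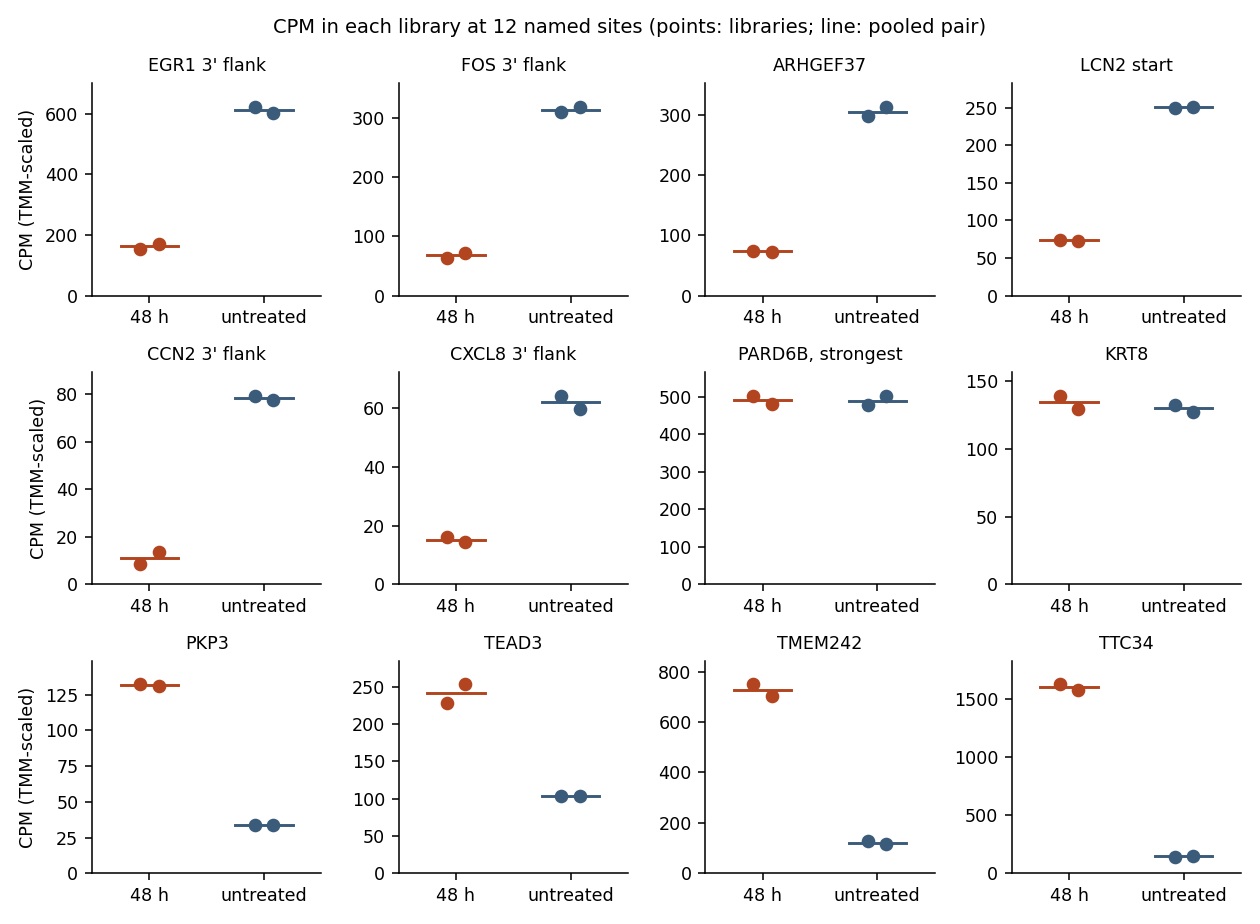
TMM-scaled CPM of each library (points) and of the pooled pair (line) at 12 named sites, 48 h on the left and untreated on the right of each panel, each axis starting at 0. The libraries of a pair lie close together; the EGR1, FOS, ARHGEF37, LCN2, CCN2 and CXCL8 sites are lower at 48 h, PARD6B and KRT8 are level, and PKP3, TEAD3, TMEM242 and TTC34 are higher.

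Epithelial junction and polarity genes, the class that ZEB1 is best known to repress, had 14 of 164 sites called lower and 25 called higher, at 13 genes, with a median log2 of -0.01. Those shares are 8.54% lower and 15.2% higher, against 7.19% and 9.88% over all linked sites. Of these sites, 113 were lower and 4 higher on the background scale. TJP1, a scaffold of tight junctions, had 6 of 17 called higher and none lower, and 1 of the 6 kept its call on the background scale. At PKP3, a plaque protein of desmosomes, the stronger site (chr11:398038-399212) had 132 and 131 CPM at 48 h, against 33.6 and 34.0 CPM in untreated cells (log2 1.96, 1.71 to 2.21, on the background scale 0.53). That PKP3 site lies 0.398 Mb from a chromosome end, and 39.1% of all tested sites within 0.5 Mb of an end were called higher. PARD3, a cell polarity scaffold, went the other way, with 7 of 19 sites lower and none higher.

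CDH1, which encodes E-cadherin and is the textbook target of ZEB1, had 6 weak sites that were split. The strongest (chr16:68741850-68742072) had 16.2 and 16.6 CPM at 48 h, against 26.4 and 24.4 CPM in untreated cells (log2 -0.63, not called). Sites at 68737140 and 68756343 were called higher at 2.72 and 2.00 (on the background scale 1.30 and 0.58, neither called), and sites at 68790290 and 68793101 were called lower at -1.88 and -1.43; all 4 had at most 15.4 CPM in any library. EPCAM, an epithelial adhesion molecule, had 2 of 3 sites called higher (3.0 and 1.29, on the background scale 1.57 and -0.14).

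The strongest site of the junction list was level on the TMM scale. It lies in PARD6B, a polarity adaptor (chr20:50730664-50731843), and had 503 and 480 CPM at 48 h, against 479 and 501 CPM in untreated cells (log2 0.01, -0.09 to 0.10, on the background scale -1.42). A weaker PARD6B site gave -1.06, or -0.91 without the second 48 h library.

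Epithelial identity factors, splicing regulators and keratins had 10 of 60 sites called lower and 4 higher (median -0.41). ELF3, an epithelial ETS factor, lost signal at its start (chr1:202009666-202010797), with 54.9 and 52.9 CPM at 48 h, against 125 and 126 CPM in untreated cells (log2 -1.22). Of the 4 sites of ELF3, 1 was called higher, at 2.22. GRHL3, a factor of the surface epithelium, had a site with 18.5 and 19.6 CPM at 48 h, against 2.61 and 2.64 CPM in untreated cells (log2 2.86, on the background scale 1.44). The stronger GRHL3 site went the other way, with 35.5 CPM at 48 h, against 58.6 CPM in untreated cells (log2 -0.72, not called). The strongest site of the list, in keratin 8 (KRT8), was level, at 139 and 129 CPM at 48 h and 132 and 127 CPM in untreated cells (log2 0.05). At the miR-200 family, whose members silence ZEB1, few sites were tested. Near MIR200B, 1 site was called lower (log2 -1.21, with 2.32 and 6.04 CPM at 48 h, against 8.98 and 10.6 CPM in untreated cells) and the nearer one, 2001 bases away, gave 0.41. The site nearest to MIR141 and MIR200C, 6408 bases from MIR141, gave -0.49 and was not called. Their mature sequences (RefSeq, GRCh38.p14) are shown because ZEB1 itself is their target; seeds are in capitals, and that of miR-141 differs from the other seeds.
hsa-miR-200b-3p: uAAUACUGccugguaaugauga
hsa-miR-200c-3p: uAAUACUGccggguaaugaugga
hsa-miR-141-3p: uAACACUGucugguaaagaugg

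Genes for EMT transcription factors had 2 of 70 sites called lower and 5 higher (median -0.07). ZEB1's own gene had 3 sites and none was called: its start (chr10:31318227-31319092) had 118 and 105 CPM at 48 h, against 75.9 and 70.9 CPM in untreated cells (log2 0.60, on the background scale -0.82). SNAI1, which encodes Snail, gave 0.57 and -0.57. At ETS1, the strongest site gave -0.26, and a weaker site called lower at -1.06 lost its call without the second 48 h library (-0.91) or the first untreated one (-0.92). Mesenchymal matrix, adhesion and cytoskeleton genes had 8 of 106 sites lower and 6 higher (median -0.17). VIM, the intermediate filament vimentin, had 2 of 5 lower, with 9.27 and 9.82 CPM at 48 h, against 27.2 and 29.0 CPM in untreated cells past its 3′ end (log2 -1.56). COL4A2, a basement membrane collagen, had the strongest site, at 0.59, and a site 880 bases from COL6A2 gave 1.34 (on the background scale -0.09). The COL6A2 site lies 0.576 Mb from a chromosome end, and 28.5% of all tested sites at 0.5 to 1 Mb were called higher.

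Genes for tubulins and microtubule proteins, the system that eribulin acts on, had 10 of 106 sites called lower and 11 higher (median -0.07), shares close to those of all linked sites. KIFC3, a minus-end kinesin, had a site with 1.55 and 6.80 CPM at 48 h, against 18 and 19.5 CPM in untreated cells (log2 -2.15, -3.19 to -1.26). MAP7, a microtubule-stabilising protein of epithelial cells, had both of its sites called higher; at its start the log2 was 1.02, or 0.92 without the first 48 h library and -0.41 on the background scale. p53 targets and cell cycle arrest genes had 2 of 49 lower and 6 higher (median -0.22). A site 9047 bases before CDKN1A, the p21 gene, gave -1.59, while the strongest of the 4 CDKN1A sites gave 0.01. A site past CCNE1, the cyclin E gene, gave 1.85 (on the background scale 0.42). Corepressor and chromatin genes had 7 of 89 lower and 9 higher, drug efflux genes 4 of 32 and 2, and housekeeping genes 4 of 46 and 3, beside the 7.19% lower and 9.88% higher of all linked sites, against which the counts of every list here are to be read. The untreated level of the sites, which differed between lists, was not matched in these counts. ABCC1, a multidrug transporter, had sites at -1.22 and 1.05 (on the background scale -2.64 and -0.38), and neither call held without the second 48 h library (-0.88 and 0.83).

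Lineage genes that breast cells should not use had 5 of 49 sites called lower and none higher (median -0.11). PECAM1, an adhesion molecule of endothelium and platelets, had 3 of them, that with the largest loss having 11.6 and 12.1 CPM at 48 h, against 49.2 and 53.8 CPM in untreated cells (log2 -2.12). Summed over the 15 lists, 158 list sites were called lower and 95 higher.

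**Figure D4:**
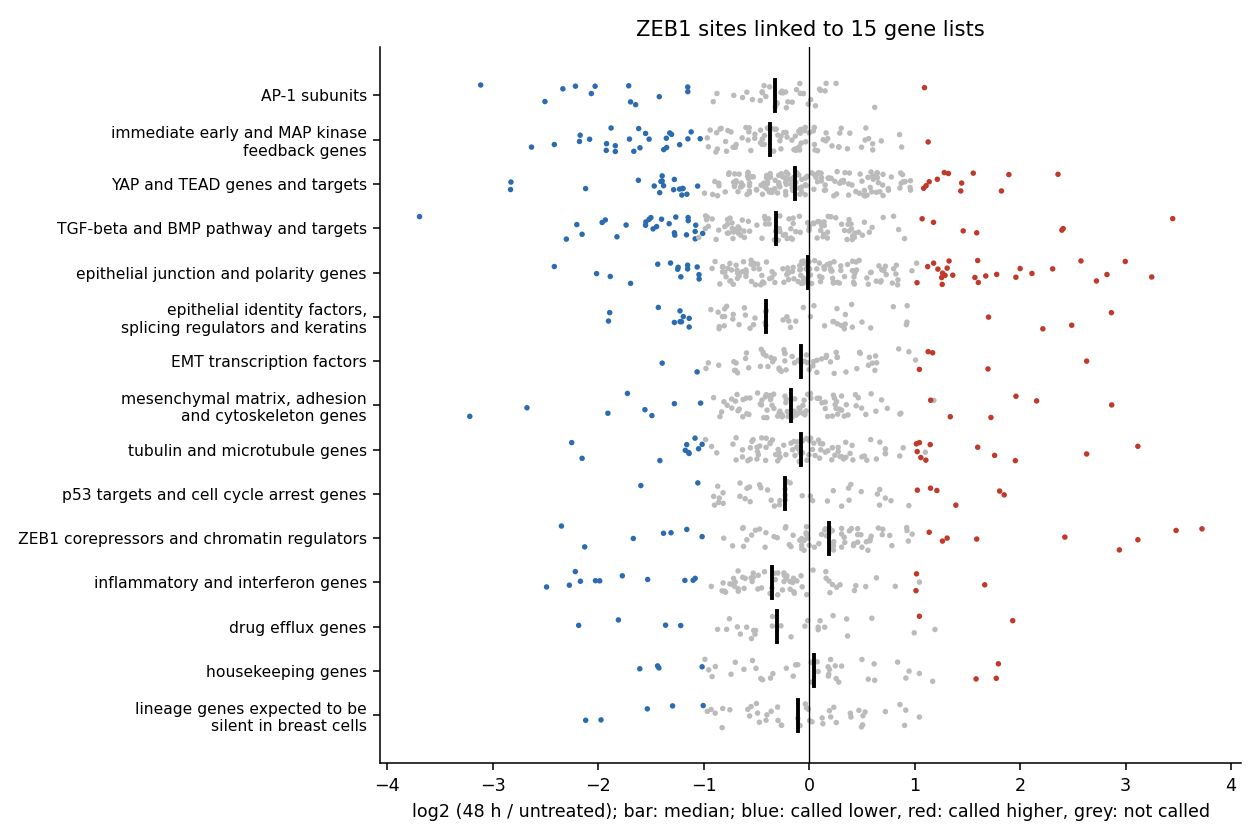
Log2 fold change (48 h over untreated) of each site linked within 10 kb to a gene of 15 lists; the black bar is the list's median, blue sites were called lower and red sites higher. AP-1, immediate early and TGF-beta genes carry 12, 25 and 26 blue sites, while epithelial junction genes carry 14 blue and 25 red.

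Sites at gene starts were less often called lower than other sites. Of 8647 sites within 500 bases of a listed start, 1.70% were called lower and 5.08% higher, with log2 quartiles of -0.25 and 0.38. In gene bodies 9.71% were called lower and 12% higher, and past 3′ ends 9.58% and 11.1%. Over all sites away from a start 9.25% were called lower. With sites split into 3 equal classes of mean CPM, low to high, the shares were 3.25%, 1.74% and 1.02% at starts, against 10.4%, 9.45% and 7.69% away from starts. That order turned on the background scale: 77.5% of start sites and 71.7% of other sites were called lower.

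Promoter sequences were read for the windows of 250 bases before to 50 after a start in RefSeq, GRCh38.p14. Of 34943 windows, 10225 had at least 150 bases in a tested site; 170 of these (1.66%) lay in a site called lower and 268 (2.62%) in a site called higher. The E-box CAGGTG, on either strand, was present in 14.1% of the windows called lower, 32.5% of those called higher, 19.4% of those not called and 20.6% of all windows. The AP-1 motif TGANTCA was present in 16.5% of the windows called lower, 8.21% of those called higher, 5.73% of those not called and 7.72% of all. The windows also differed in composition: mean GC content was 58.1% in those called lower, 67.7% in those called higher, 65.7% in those not called and 57.5% over all windows. GGGCGG, the SP1 box, was in 41.2%, 72.4%, 75.3% and 44.9% of the same 4 groups, and GGAATG, a TEAD motif, in 15.9%, 6.34%, 10.5% and 14%. TGACGTCA, the CRE, was in 0.588%, 5.22%, 3.92% and 1.84%. These shares are descriptions, and the part of base composition in them was not tested.

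Promoters from both directions are printed below, with matches to CAGGTG (read as CACCTG on the other strand) and to TGANTCA in capitals. LCN2 and an alternative start of MARK2, a kinase that detaches microtubule-associated proteins, lay in sites called lower. The MARK2 window had 40.9 and 37.0 CPM at 48 h, against 89.5 and 86.7 CPM in untreated cells (log2 -1.18), and both windows hold the E-box and the AP-1 motif. POLG, the catalytic subunit of the mitochondrial DNA polymerase, and MTIF3, a mitochondrial translation initiation factor, lay in sites called higher. POLG had 101 and 107 CPM at 48 h, against 45.2 and 41.9 CPM in untreated cells (log2 1.26, on the background scale -0.17). MTIF3 had 112 and 109.5 CPM at 48 h, against 53.9 and 47.5 CPM in untreated cells (log2 1.12, on the background scale -0.30), and neither of these holds TGANTCA.
LCN2, chr9:128149203-128149502, plus strand: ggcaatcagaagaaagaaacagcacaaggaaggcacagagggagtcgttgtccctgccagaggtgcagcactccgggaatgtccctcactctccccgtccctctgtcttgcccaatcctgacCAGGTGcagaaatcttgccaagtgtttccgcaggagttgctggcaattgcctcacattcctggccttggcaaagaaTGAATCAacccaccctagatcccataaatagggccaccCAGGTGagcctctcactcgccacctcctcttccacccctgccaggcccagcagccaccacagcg
MARK2, chr11:63888287-63888586, plus strand: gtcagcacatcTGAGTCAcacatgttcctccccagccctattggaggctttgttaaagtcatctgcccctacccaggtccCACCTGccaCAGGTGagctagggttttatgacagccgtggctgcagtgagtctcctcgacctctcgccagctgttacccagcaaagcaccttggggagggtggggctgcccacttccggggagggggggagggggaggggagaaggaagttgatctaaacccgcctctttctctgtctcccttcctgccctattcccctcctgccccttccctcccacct
POLG, chr15:89334775-89335074, minus strand: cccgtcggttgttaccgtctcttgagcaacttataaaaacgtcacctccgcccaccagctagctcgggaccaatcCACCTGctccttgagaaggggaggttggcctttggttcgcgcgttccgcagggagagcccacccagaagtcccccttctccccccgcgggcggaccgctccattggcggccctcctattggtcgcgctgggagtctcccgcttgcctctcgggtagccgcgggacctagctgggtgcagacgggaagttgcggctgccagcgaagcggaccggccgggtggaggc
MTIF3, chr13:27450515-27450814, minus strand: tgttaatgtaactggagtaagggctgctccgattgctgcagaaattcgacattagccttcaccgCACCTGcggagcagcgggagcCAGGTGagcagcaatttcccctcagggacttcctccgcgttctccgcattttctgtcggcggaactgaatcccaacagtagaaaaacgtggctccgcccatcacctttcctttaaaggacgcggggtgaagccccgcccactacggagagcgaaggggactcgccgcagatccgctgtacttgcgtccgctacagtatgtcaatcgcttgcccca
The FOS promoter, whose site gave -1.15, is shown for contrast, since neither motif has a match in its window.
FOS, chr14:75278578-75278877, plus strand: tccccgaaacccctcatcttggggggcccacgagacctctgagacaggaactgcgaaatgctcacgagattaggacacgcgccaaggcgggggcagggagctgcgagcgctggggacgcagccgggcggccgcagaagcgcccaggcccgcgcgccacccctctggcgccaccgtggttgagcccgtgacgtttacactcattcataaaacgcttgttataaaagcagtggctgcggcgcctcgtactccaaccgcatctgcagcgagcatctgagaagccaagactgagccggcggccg

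Most of the largest gains lay in repeated and subtelomeric DNA. TTC34 at the end of the short arm of chromosome 1 had 37 linked sites and all 37 were called higher on both scales, with 7166 CPM in all at 48 h, against 633 CPM in untreated cells (median log2 3.50, on the background scale 2.08). Its strongest site (chr1:2653627-2655811) had 1624 and 1578 CPM at 48 h, against 144 and 151 CPM in untreated cells (log2 3.44, 3.34 to 3.55). The level there was thus over 4-fold higher even on the background scale, at 2.02.

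DUX4, a homeobox factor of the early embryo whose copies fill macrosatellite repeats at the ends of chromosomes 4 and 10, had a site (chr4:190177608-190180006) with 3709 and 3590 CPM at 48 h, against 637 and 629 CPM in untreated cells (log2 2.53, on the background scale 1.10). All 29 sites within 5 kb of a DUX4 or FRG2 family gene were called higher, from 1.56 to 2.86, and 13 of them also on the background scale. They lie on chromosomes 4 (7 sites), 10 (17), 3 (2), 9 (2) and 20 (1). In all they held 7018 CPM at 48 h, against 1284 CPM in untreated cells. A site in the ROCK1P1 region near the end of chromosome 18 (chr18:107700-109403) was the largest gain in CPM, with 3988 and 3778 CPM at 48 h, against 730 and 793 CPM in untreated cells (log2 2.35, on the background scale 0.93). Of 7 sites in the first 130 kb of chromosome 18, 6 were called higher. Such copies are nearly identical, so which copy a read came from is uncertain, and these groups were chosen after their values were seen.

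Ribosomal RNA genes, another repeat, behaved differently. None of 14 sites at the 45S genes was called, although they held the most signal, with 27770 CPM in all at 48 h, against 16433 CPM in untreated cells. Their log2 fold changes ran from 0.37 to 0.99, and their median of 0.88 was -0.55 on the background scale.

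Outside the repeat groups named above, TMEM242, a mitochondrial assembly factor, had 3 of 4 sites called higher, and its start was level (log2 0.06). The strongest (chr6:157310413-157312185) had 749 and 702 CPM at 48 h, against 126 and 117 CPM in untreated cells (log2 2.57, 2.45 to 2.69, on the background scale 1.15). RPH3AL, a Rab effector of exocytosis near the end of chromosome 17, had 10 of 11 sites higher, with 463 CPM in all at 48 h, against 66.2 CPM in untreated cells (median log2 2.11, on the background scale 0.68). DLGAP2, a postsynaptic scaffold near the end of chromosome 8, had 8 of 9 higher, with 327 CPM at 48 h, against 40.9 CPM in untreated cells (median log2 3.77, on the background scale 2.34). RIPK1, a kinase of cell death signalling, had 3 of 8 sites higher, with a median log2 of 0.20 (on the background scale -1.23).

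The authors' 48 h list holds 2381 peaks that overlap no untreated peak. The 6 with the highest fold enrichment were all in sites called higher, which their selection makes likely, so these calls are a description. The first (chr4:189155280-189155870) had 51.0 and 52.9 CPM at 48 h, against 3.77 and 3.63 CPM in untreated cells (log2 3.81). PIWIL1, a germ line Argonaute protein, had 54.8 and 74.0 CPM at 48 h, against 4.63 and 4.29 CPM in untreated cells (log2 3.85). The others lay in LRRC27 (3.46), ZNF83 (3.50), ADGRA1 (2.28) and FAM230F (1.76). These 6 ran from 0.33 to 2.43 on the background scale.

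Distance to a chromosome end went with the gains, also a grouping chosen after the values were seen. Of 591 sites within 0.5 Mb of an end, 39.1% were called higher and 2.2% lower, while over 20 Mb from an end 8.78% were called higher and 7.84% lower. Leaving out the repeats above, 35.9% of the sites within 0.5 Mb were still called higher. On the background scale the shares called higher were 19.6% within 0.5 Mb and 1.26% over 20 Mb from an end. Ends differed from each other: over the last 3 Mb the median log2 was 2.50 at the long arm of chromosome 11, 2.45 at that of chromosome 4 and 1.96 at that of chromosome 7. It was -0.03 at both ends of chromosome 16, -0.21 at the long arm of chromosome 21 and -0.25 at that of X. Sites near ends were weaker in untreated cells, with a median of 8.33 CPM within 0.5 Mb and 12.3 CPM over 20 Mb from an end. In the same 3 classes of mean CPM, 48.7%, 31.6% and 35.1% of the sites near ends were called higher, against 14.8%, 7.56% and 3.39% of those over 20 Mb away.

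**Figure D5:**
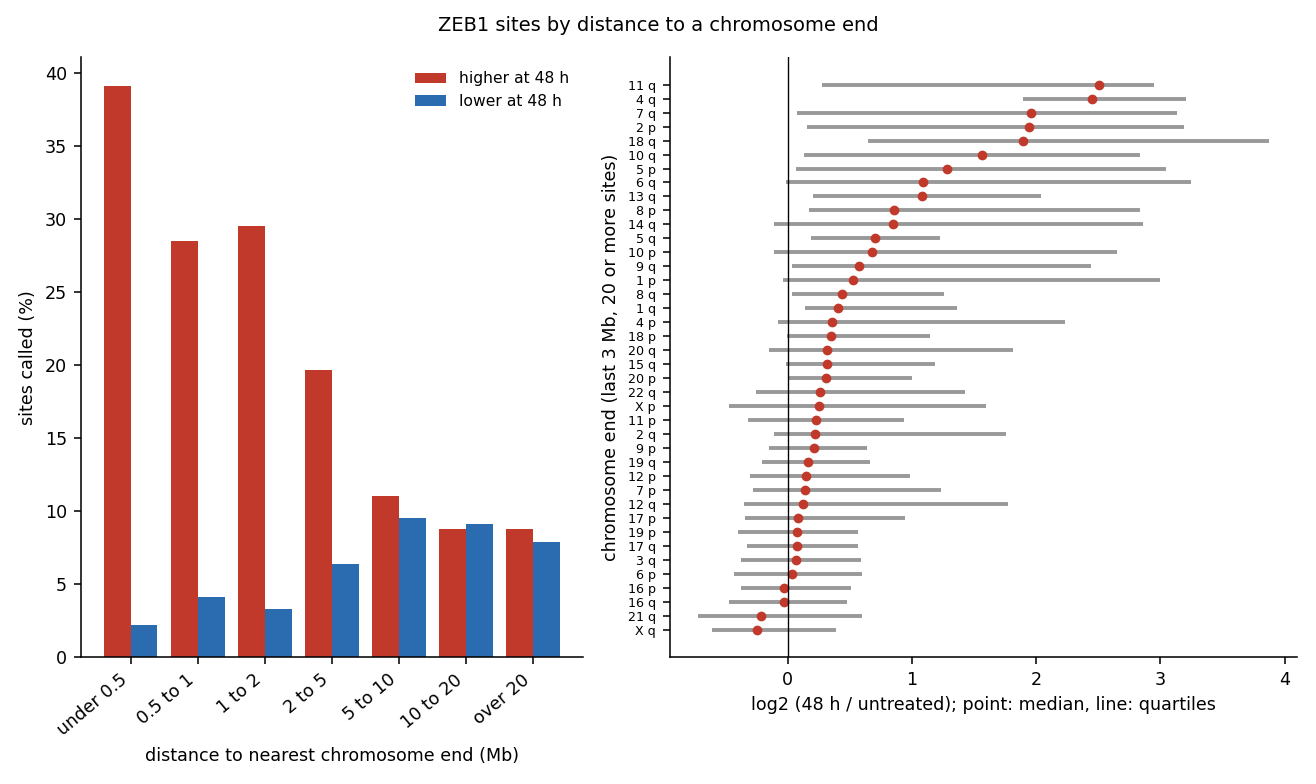
Left, share of sites called higher (red) and lower (blue) at 48 h by distance to the nearest chromosome end in Mb; right, median (point) and quartiles (line) of log2 fold change (48 h over untreated) over the last 3 Mb of each chromosome arm with at least 20 sites. The share called higher is 39.1% within 0.5 Mb and 8.78% beyond 20 Mb, and the medians run from -0.25 to 2.50.

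Strong sites that stayed level on the TMM scale show what the scale takes as no change. Besides PARD6B, the site near NEAT1, a nuclear long non-coding RNA (chr11:65426704-65428802), had 553 and 502 CPM at 48 h, against 557 and 532 CPM in untreated cells (log2 -0.05). TOMM40, a channel of the mitochondrial outer membrane, gave 0.08 at its start, TRAM2 0.03 and SPATC1L -0.17. These 4 ran from -1.60 to -1.35 on the background scale.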

How the data were processed

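The ZEB1 CUT&RUN libraries number 8, from a human breast cancer line, and 4 enter the comparison. Per the submitters' processing notes, MACS2 2.1.1, Bowtie2 2.2.6, cutadapt 2.4, bedtools 2.30.0, featureCounts, Picard, deepTools and bcl2fastq 2.20.0.422 were used with hg38, with no roles given. The deposited count table holds whole-number counts per consensus site, without normalization, and the sources used here do not say if reads or fragments were counted. The deposited peak lists, 1 per condition, give a fold enrichment (a ratio), an integer score, -log10 q and -log10 p by the authors' peak caller, and their peak names carry replicate 1 of the condition.

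From the counts, sites kept by filterByExpr of edgeR 4.0.16 (R 4.3.3) were scaled by TMM over 8 libraries, and the counts of each pair were pooled. Ratios have exact (Clopper-Pearson) 95% intervals (scipy 1.17.1), which cover counting error only. Nothing in the labels says that the libraries of a pair came from separate cultures. The background level of a list was solved from the fold and -log10 p of its peaks, taking the most frequent value. Alternatives were other scalings, edgeR and DESeq2 1.42.0 tests over libraries, other fold limits, links and overlaps (bedtools 2.31.1), and leaving out each library. The test was tried on simulated data. Sites were linked to the nearest protein-coding or microRNA gene within 10 kb by the RefSeq table of GRCh38.p14. Strand was known where the RefSeq promoter table lists a start, for 15842 of 20033 protein-coding genes.

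The members, the 15 lists and the tests were chosen with earlier results of these data known. Sites were named by rule: the 10 called sites per direction with the largest CPM difference, the 6 genes per direction with the largest summed difference whose sites (3 or more) lay on one side, per list the strongest site and the largest called difference in each direction, the 8 strongest sites within 0.25 of no change, and the 6 strongest new peaks. Of these, the sites shown in the text are a selection, and some are not reported here. Other genes (FOSB, JUN, NR4A1, IER2, MCL1, TJP1, CDH1, EPCAM, PARD3, TEAD1, CCN1, CXCL1, CXCL2, IL1B, ZEB1, SNAI1 and the microRNA genes), the remaining sites at named genes, and the promoters printed were chosen after their values were seen. Libraries at 24 h and 72 h enter the filter, the scaling and the side-by-side values, and the IgG libraries were not analysed here.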

Additional observations from a re-analysis of the deposited data

Results flagged for a closer look

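The deposited 48 h peak list holds 351 peaks on unplaced contigs, which the count table leaves out, or 1.61% of its 21816 peaks. The untreated list holds 333 such peaks, or 0.716% of its 46483. These contigs carry repeats, and the peaks were given no further analysis.

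The strongest TMEM242 site (chr6:157310413-157312185) was higher at 48 h and close to the untreated level at 24 h. It had 749 and 702 CPM at 48 h, against 126 and 117 CPM in untreated cells (log2 2.57). At 24 h it had 113 and 117 CPM (log2 -0.09), and at 72 h the log2 was 1.60. The differences between the times were not tested, and all are set against the same untreated libraries.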

How the results depend on the processing

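Of the sites called at 48 h, 3644 lower and 5119 higher, scaling to the background of the peak caller gave 33798 lower and 1422 higher. A fold limit of 1.5 gave 7223 and 7893, and a limit of 4 gave 439 and 2078. DESeq2 over 4 libraries gave 1832 lower and 3452 higher, and an assumed coefficient of variation of 0.2 gave 1032 and 2728. Without each library in turn, the counts ranged from 3593 to 3720 lower and from 4849 to 5172 higher. The share of untreated peaks that overlap a 48 h peak was 40.8%, and it was 27.4% where each peak had to share 50%, 35.8% at a -log10 q of at least 5 in both lists, and 68.3% for the strongest untreated peaks, as many as the 48 h list holds. Sites of the lists called lower numbered 158, and 105 with links within 1 kb. List sites numbered 1036 lower and 13 higher on the background scale.

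On the background scale, 8 of 65 named sites changed sign: FOSL1 (-0.33), IER3 (-0.30), TEAD3 (-0.21), ETS2 (-0.30), COL6A2 (-0.087), MAP7 (-0.41), IRF7 (-0.41) and ABCC1 (-0.38). That follows from its construction, which lowers each log2 value by 1.42. For the same reason each lower call had to be kept there, and 1422 of the 5119 higher calls were kept.

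With the replicate number as a block, edgeR called 3392 lower and 4908 higher, against 3408 and 4927 without it. Deviations of libraries with the same number had a correlation of 0.000585 over all tested sites, so the numbers were not taken as pairs. The edgeR dispersion corresponds to a coefficient of variation of 0.00988 beyond counting noise, which is close to none. These counts therefore describe the libraries and not cultures.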

Other observations

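Values at 24 h, 48 h and 72 h, each as log2 fold change on the TMM scale against the same untreated libraries, differed in order between the named sites. Since the comparisons share those libraries, they are given side by side and the differences between times were not tested. The FOS flank site gave -4.64, -2.21 and -3.26, and the EGR1 flank site -2.90, -1.92 and -1.78. The CCN2 flank site gave -3.58, -2.83 and -2.70. At these 3 sites the value was the lowest at 24 h.

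At ARHGEF37 the values were -1.18, -2.06 and -0.27, and at the LCN2 start -1.92, -1.77 and -0.33. On the TMM scale both thus lay near the untreated level at 72 h. Counts in sites per unit of background were 35.6% of the untreated value at 72 h, so a return to that level on the background scale is not shown. CXCL8, past its 3′ end, gave -1.14, -2.02 and -0.78. Among gains, TTC34 gave 0.92, 3.44 and 2.53, DUX4 1.03, 2.53 and 2.63, and PKP3 -0.01, 1.96 and 0.83. At PARD6B, level at 48 h, the values were -1.16, 0.01 and 0.32.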
